A study of Mus with 9 samples.

Results

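The genes described here encode carriers that move sugars, sodium, chloride, bicarbonate and calcium across cell membranes. They were chosen by name alone: every protein-coding gene of the deposited kidney table whose symbol begins with Slc2a, Slc4a, Slc5a, Slc8a, Slc9a, Slc12a, Slc24a or Slc26a. This gave 75 of 22046 protein-coding genes and of 54532 genes in all. They comprise 12 sugar facilitators (Slc2a), 11 bicarbonate transporters (Slc4a), 13 sodium-coupled cotransporters of sugars and other solutes (Slc5a), 3 and 5 sodium/calcium exchangers (Slc8a and Slc24a), 11 sodium/proton exchangers (Slc9a), 9 cation-chloride cotransporters (Slc12a) and 11 anion exchangers (Slc26a). The symbols also bring in Slc9a3r1 and Slc9a3r2, which encode scaffold proteins, and Slc4a1ap, which encodes an adaptor. These 3 genes are not transporters and were kept because the naming rule takes them.

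The nephron recovers filtered solutes segment by segment. In the proximal tubule, sodium-coupled cotransporters on the luminal side take up glucose and other solutes, facilitators let the sugar out on the blood side, and a sodium/proton exchanger works with a basolateral sodium-bicarbonate cotransporter to reclaim bicarbonate. The thick ascending limb and the distal convoluted tubule each have their own sodium-chloride cotransporter, which are the targets of loop and thiazide diuretics. Intercalated cells of the collecting system exchange chloride for bicarbonate and adjust acid and base.

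Kidney RNA of male C57BL/6 mice was sequenced in 9 libraries, 3 for every group (18 mo, 21 mo and 21 mo/O304), to ask how the ageing kidney changes and what O304 does to it. Every mouse lost 1 kidney by surgery when 18 months old. Mice of the 18 mo group were killed a week later, before any injection. The 21 mo group then received saline intraperitoneally for 12 weeks, and the 21 mo/O304 group received O304, a small-molecule activator of the energy-sensing kinase AMPK, at 10 mg/kg/day over the same 12 weeks. Age, time since surgery and injections all differ between the 18 mo group and both others, and they cannot be told apart. The labels number the replicates of each group 1 to 3 without saying that each is a separate mouse, so p-values measure the spread between these samples. The RNA is of kidney tissue, and which portion of the kidney each library holds is not given in the sources used here. In such bulk tissue, fewer cells of a type and less RNA per cell cannot be told apart.

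The counts summed to between 15636378 and 18396725 per library. Levels of 1 gene across libraries are given as CPM, the count scaled to a common library size with edgeR's TMM factors, where 1 count was worth between 0.0458 and 0.0669 CPM, and the values of a group follow its replicates 1 to 3. Libraries named as under O304 are those of the 21 mo/O304 group. Levels of different genes are compared on FPKM, the deposited count per gene length and library size. Fold changes are on the log2 scale with their standard errors (SE) from edgeR's quasi-likelihood test, fitted over 15902 genes that passed its filter on low counts, with p-values adjusted over all of them. The 21 mo libraries differed most among themselves. The Pearson correlation of log2 CPM across genes was 0.881 between their replicates 1 and 3, against 0.972 or more within each of the other groups. Markers of the proximal tubule, thick limb, distal convoluted tubule, principal cells, intercalated cells, podocytes and endothelium were detected in all 9 libraries, apart from Avpr2 of the principal cell list, at 0.233 CPM or less, and Pvalb of the distal convoluted tubule list, at 0 in replicate 3 of the 21 mo group. Skeletal muscle markers summed to 0.962 CPM at most.

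Of the 75 genes, 58 passed the filter and 17 did not. The 17 were Slc2a7, Slc2a10, Slc4a10, Slc5a4a, Slc5a4b, Slc5a5, Slc5a7, Slc8a2, Slc8a3, Slc12a8, Slc24a1, Slc24a2, Slc24a4, Slc26a3, Slc26a5, Slc26a8 and Slc26a9. No library held more than 33 counts of any of them, and Slc24a2 and Slc26a5 had 0 counts in all 9 libraries, where a count of 0 allows up to 3 counts per library. Slc5a4a had the highest single count, with 33, 9 and 7 counts at 18 mo, 4, 0 and 1 at 21 mo and 11, 2 and 1 under O304. The limit covers counting error only.

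On FPKM, the mean over the 9 libraries was highest for the scaffold gene Slc9a3r1, at 187. The transporters that followed were Slc12a1 of the thick limb at 162, the proximal bicarbonate exit Slc4a4 at 87.6, the glucose carrier Slc5a2 at 78.4 and the distal sodium-chloride cotransporter Slc12a3 at 55.5. Next came 3 more Slc5a genes of the proximal tubule, Slc5a10 at 51.3, Slc5a8 at 47.9 and Slc5a12 at 38.7. The highest facilitator was Slc2a2 at 32.3 FPKM, the highest anion exchanger Slc26a1 at 30.5, the highest sodium/calcium exchanger Slc8a1 at 15.5, and in the Slc24a family Slc24a3 reached only 0.326. The spread over libraries was wider than many steps in this order. In the 18 mo group, Slc9a3r1 was at 241 ± 22.5 FPKM, Slc12a1 at 187 ± 160 FPKM, Slc5a2 at 117 ± 54.9 FPKM and Slc4a4 at 85.9 ± 18.8 FPKM (SD, n = 3 each), so each differed from its neighbour by less than their spread.

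Summed over its genes, the Slc26a family held 64.2 ± 12.7 FPKM in the 18 mo group, 31.6 ± 16.8 FPKM in the 21 mo group and 60.01 ± 9.34 FPKM under O304 (SD, n = 3 each). Slc5a, the family of the glucose cotransporters, held 338 ± 57.2, 214 ± 134 and 303 ± 9.17 FPKM in the same order, and Slc9a, with the sodium/proton exchangers and their scaffolds, held 335 ± 19.99, 207 ± 57.4 and 262 ± 6.93 FPKM. These 3 families had the lowest 21 mo means relative to 18 mo of the 8 families, and the 21 mo range was wide in each. The Slc2a facilitators held 92.1 ± 1.67, 72.9 ± 14.5 and 89.2 ± 3.33 FPKM, and the Slc12a family 288 ± 146, 266 ± 89.5 and 198 ± 48.0 FPKM. A family sum follows its few highest genes, here Slc9a3r1, Slc12a1, Slc5a2 and Slc26a1.

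**Figure D1:**
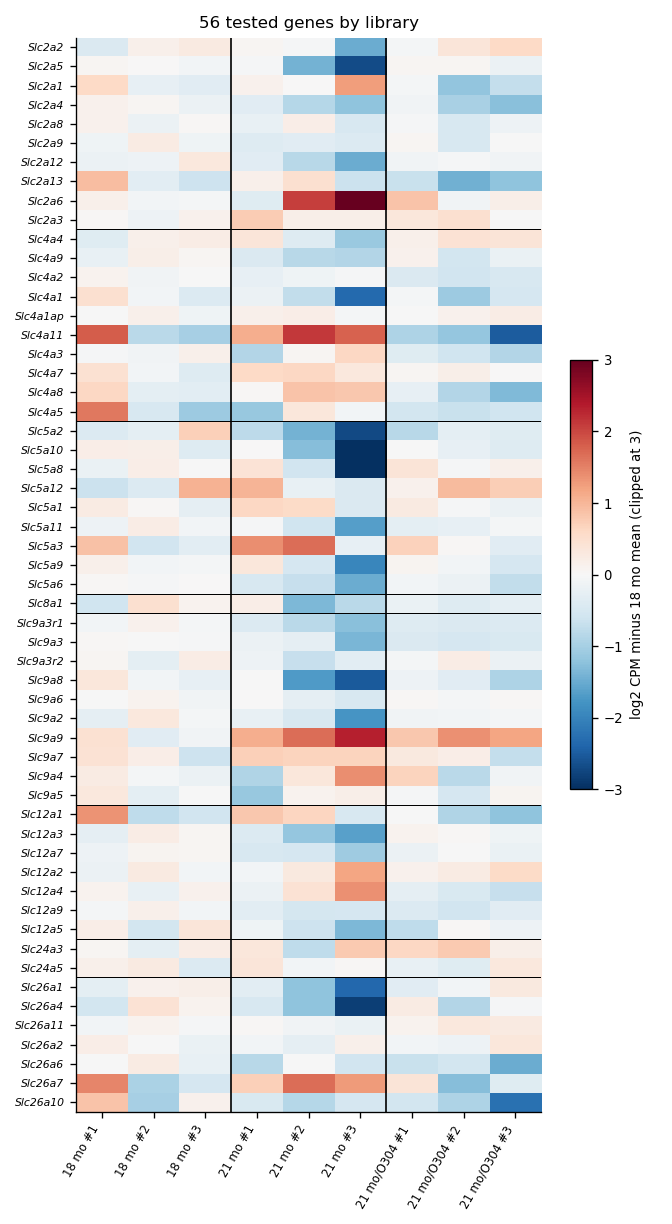
Each row is 1 of 56 tested genes and each column 1 library, and the colour gives log2 CPM minus the mean of the 3 libraries of the 18 mo group, from blue (lower) to red (higher), clipped at 3. Thin black lines part the 8 families and thick lines the groups. Replicate 3 of the 21 mo group holds the deepest blue and red cells, and the median over all 58 tested genes was −0.49 in that library.

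In 21-month-old against 18-month-old kidney, 37 of the 58 genes had a lower and 21 a higher fitted level, with a median log2 fold change of −0.33, against 0.03 over all genes tested. No member passed an adjusted p of 0.05 in edgeR's quasi-likelihood test, where 0.0189% of all genes passed higher and 0% lower. At an unadjusted p under 0.05, 12 members were lower and 2 higher, against 12% of all genes lower and 14.0% higher. The 3 libraries of the 21 mo group lay below all 3 of the 18 mo group for 12 members and above them for 3, against 15.3% and 13.5% of all genes. For every gene named below whose groups did not overlap, the exact permutation test (two-sided) gave p = 0.1, the smallest that 3 samples against 3 allow. The libraries took different parts in this. Replicates 1 to 3 of the 21 mo group lay below every 18 mo library for 21, 31 and 33 of the 58 members and above every one for 11, 16 and 12, while over all genes they lay below for 33.4%, 36.1% and 40.5% and above for 31.1%, 37.3% and 41.3%.

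How many members passed differed between fits. Without replicate 1 of the 21 mo group, 17 members passed lower and 3 higher (edgeR), against 11.9% and 13.6% of all genes. The 17 include Slc5a4a, which passed the filter in that fit but not with all libraries. Without replicate 3 of that group, 0 members passed, and the median log2 fold change was −0.20. DESeq2 with all libraries called 7 lower and 2 higher, against 5.41% and 6.90% of the genes with an adjusted p. Limma voom with sample quality weights called 26 lower and 10 higher, against 26.6% and 26.3%, and it gave replicates 1 to 3 of the 21 mo group weights of 0.223, 9.11 and 0.132. With no filter on low counts, edgeR called 1 member higher, Slc9a9, and 0 lower, against 1.43% and 0.609% of genes.

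In 21 mo/O304 against 21 mo kidney, 34 of the 58 genes had a higher and 24 a lower fitted level, with a median log2 fold change of 0.08, against −0.02 over all genes tested. Both comparisons use the same 21 mo libraries, so their directions are not independent. No member passed an adjusted p of 0.05 in edgeR's test, where 0% of all genes passed in either direction. At an unadjusted p under 0.05, 6 members were higher and 7 lower, against 8.27% and 12.4% of all genes. The groups did not overlap for 6 members higher and 9 lower under O304, against 10.8% and 10.5% of all genes. Without replicate 1 of the 21 mo group, edgeR called 10 members higher and 6 lower, against 10.6% and 12.6% of genes. DESeq2 called 1 higher and 3 lower, against 1.71% and 4.04%, and limma voom with quality weights 21 higher and 15 lower, against 21.2% and 19.8%.

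In 21 mo/O304 against 18 mo kidney, 41 members had a lower and 17 a higher fitted level, with a median log2 fold change of −0.14, against 0.00 over all genes. No member passed in edgeR's test, where 0% of all genes passed, while 5 were lower and 1 higher at an unadjusted p under 0.05, against 5.33% and 4.33% of all genes. The groups did not overlap for 9 members lower and 2 higher, against 13.3% and 13.2% of all genes. DESeq2 and limma voom with quality weights each called 1 member lower and 0 higher, Slc4a2 in both, where 0.559% and 0.325% of genes passed lower and higher in DESeq2 and 1.57% and 1.04% in limma.

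**Figure D2:**
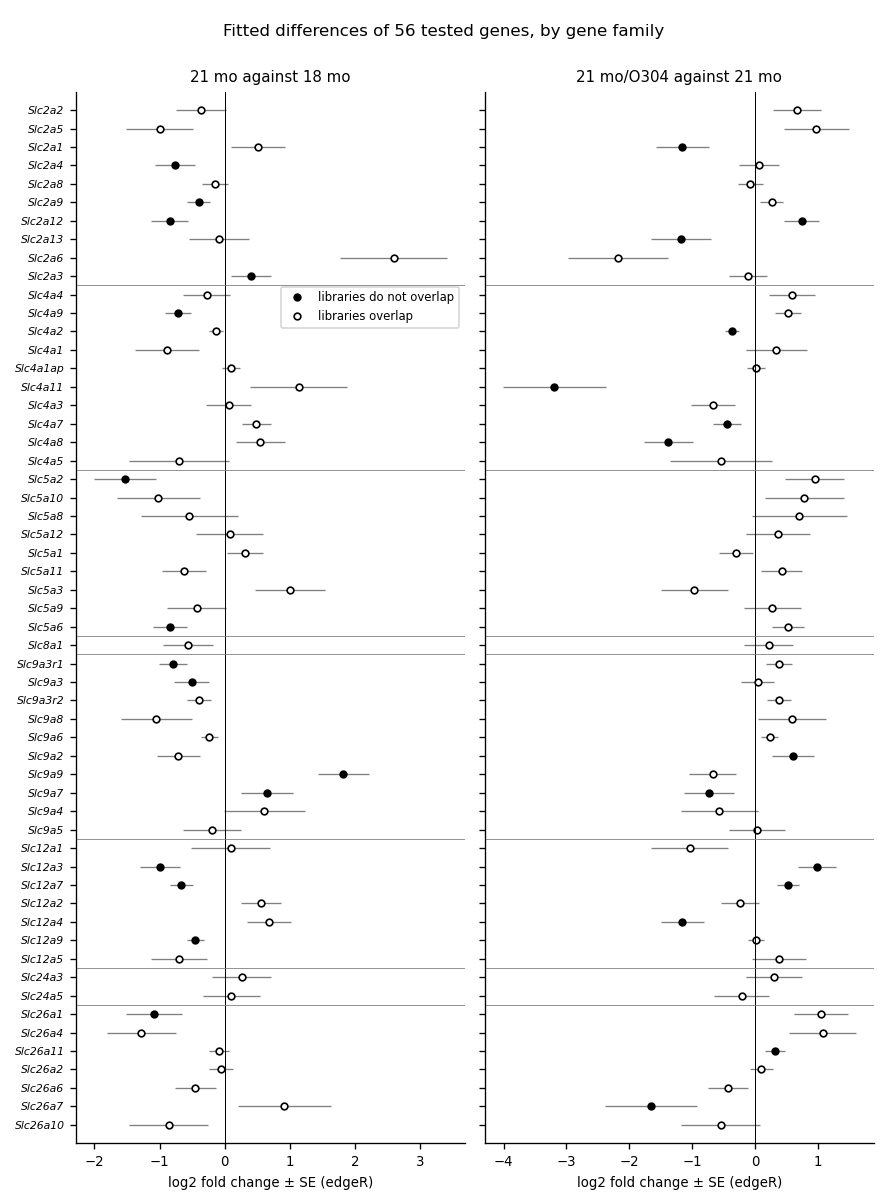
Points are edgeR's log2 fold changes of 56 tested genes and lines their standard errors, for 21 mo against 18 mo (left) and 21 mo/O304 against 21 mo (right). Filled points mark the 15 genes on the left and the 14 on the right whose 3 libraries of one group all lie beyond the 3 of the other. The log2 fold changes run from −1.53 for Slc5a2 to 2.59 for Slc2a6 on the left and from −3.19 for Slc4a11 to 1.08 for Slc26a4 on the right.

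The carriers of the proximal tubule lay low in replicates 2 and 3 of the 21 mo group and close to the 18 mo level in its replicate 1. Of 13 members known from this segment (Slc5a1, Slc5a2, Slc5a8, Slc5a10, Slc5a11, Slc5a12, Slc2a2, Slc2a5, Slc2a9, Slc4a4, Slc9a3, Slc26a1 and Slc26a6), 11 had a lower fitted level at 21 mo, against 47.3% of all genes, and their median log2 fold change was −0.51. For 4 of the 13 the 21 mo libraries all lay lower, against 15.3% of all genes. Relative to the 18 mo mean, the median of their log2 levels stood at −0.03, −0.39 and −1.50 for the 21 mo libraries in replicate order and at −0.01, −0.07 and −0.05 for those under O304. In 21 mo/O304 against 21 mo, 11 of the 13 had a higher fitted level, against 48.2% of all genes, with a median of 0.59. For 0 of the 13 were these groups without overlap, against 10.8% of all genes higher and 10.5% lower. That median was 0.26 without replicate 3 of the 21 mo group, where 0 passed. Without its replicate 1 it was 0.95, and 4 of the 13 passed higher in edgeR, against 10.6% of all genes. None of the 13 passed in edgeR's test with all libraries. The median at 21 mo was −0.31 without replicate 3 of that group and −0.72 without its replicate 1. In the latter fit 5 of the 13 passed lower, against 11.9% of all genes, and in the former 0 passed.

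A list of 9 other proximal tubule markers was low in the same libraries. All 9 had a lower fitted level at 21 mo, against 47.3% of all genes. For 2 of them the 21 mo libraries all lay lower, against 15.3% of all genes. They summed to 11018, 14216 and 13194 CPM at 18 mo, 11767, 5757 and 1656 CPM at 21 mo and 11635, 12444 and 12817 CPM under O304. None of the 9 was at 0 in any library. Tubule injury markers ran the other way, with 179, 1289 and 2144 CPM at 21 mo against 169 to 172 CPM at 18 mo and 134 to 188 CPM under O304. The part of the cell makeup in the carriers' levels was not tested.

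Slc5a2 encodes SGLT2, which takes up most of the filtered glucose in the early proximal tubule and is the target of the gliflozin drugs. It lies on chromosome 7 from 128265657 to 128272430 (GRCm38), where BC017158 overlaps it, and reads of the pair could not be separated here. Its libraries held 244, 264 and 537 CPM at 18 mo, 190, 123 and 49.5 CPM at 21 mo and 182, 267 and 252 CPM under O304. All 3 libraries of the 21 mo group lay below those of the 18 mo group, and replicate 3 was the lowest of the 9. At 21 mo the log2 fold change was −1.53 (SE 0.48, edgeR adjusted p = 0.10). It passed in DESeq2 (adjusted p = 0.0157) and, in the fit lacking replicate 1 of the 21 mo group, in edgeR, at −2.0 (adjusted p = 0.0196). Without replicate 3 it was −1.18 (edgeR adjusted p = 0.119). Against 21 mo, the O304 libraries differed by 0.95 on the log2 scale (SE 0.47, edgeR adjusted p = 0.274), and the groups overlapped.

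Slc5a1, which encodes SGLT1 and takes up the glucose left for the later proximal tubule, did not share this pattern. It held 102, 88.4 and 72.2 CPM at 18 mo, 134, 128 and 64.0 CPM at 21 mo and 104, 84.0 and 76.7 CPM under O304. The first 2 replicates of the 21 mo group were the highest of all libraries and its replicate 3 the lowest. The log2 fold change at 21 mo was 0.31 (SE 0.27, edgeR adjusted p = 0.483). It overlaps the pseudogenes Gm15936 and 5033423K11Rik.

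Slc5a8 encodes a sodium-coupled carrier of lactate and other monocarboxylates. It had 244, 322 and 278 CPM at 18 mo, 373, 188 and 18.2 CPM at 21 mo and 365, 271 and 309 CPM under O304. The 21 mo group thus held both the highest and the lowest library, and the log2 fold change of −0.54 (SE 0.75, edgeR adjusted p = 0.666) was within their spread. The fits lacking replicate 1 or replicate 3 of the 21 mo group gave −1.43 and −0.02, and it passed in neither. Slc5a12, the lower-affinity carrier of the same substrates, had 80.0, 94.0 and 254 CPM at 18 mo, 252, 107 and 92.5 CPM at 21 mo and 136, 239 and 205 CPM under O304. Its groups overlapped throughout, and the 21 mo log2 fold change of 0.08 (SE 0.51) turned to −0.48 with limma voom.

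Slc5a10, the carrier SGLT5 of mannose and fructose, had 182, 177 and 121 CPM at 18 mo, 158, 64.5 and 14.6 CPM at 21 mo and 156, 132 and 120 CPM under O304. Replicate 1 of the 21 mo group lay inside the range of the 18 mo libraries and the others below it, with a log2 fold change of −1.02 (SE 0.64, edgeR adjusted p = 0.328) that was −2.0 and passed without that replicate (edgeR adjusted p = 0.0281). Without replicate 3 it was −0.54 (edgeR adjusted p = 0.377). Fam83g and Grap overlap this gene. Slc5a11, which carries myo-inositol, held 64.9, 84.9 and 68.4 CPM at 18 mo, 70.8, 47.9 and 22.9 CPM at 21 mo and 59.1, 61.2 and 69.6 CPM under O304. It had the same order of replicates at 21 mo as Slc5a10. Slc5a6, the multivitamin carrier of biotin and pantothenate, was separated between the ages, with 28.9, 27.5 and 28.7 CPM at 18 mo and 20.2, 17.6 and 9.99 CPM at 21 mo, a log2 fold change of −0.83 (SE 0.26, edgeR adjusted p = 0.101). Atraid overlaps it.

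**Figure D3:**
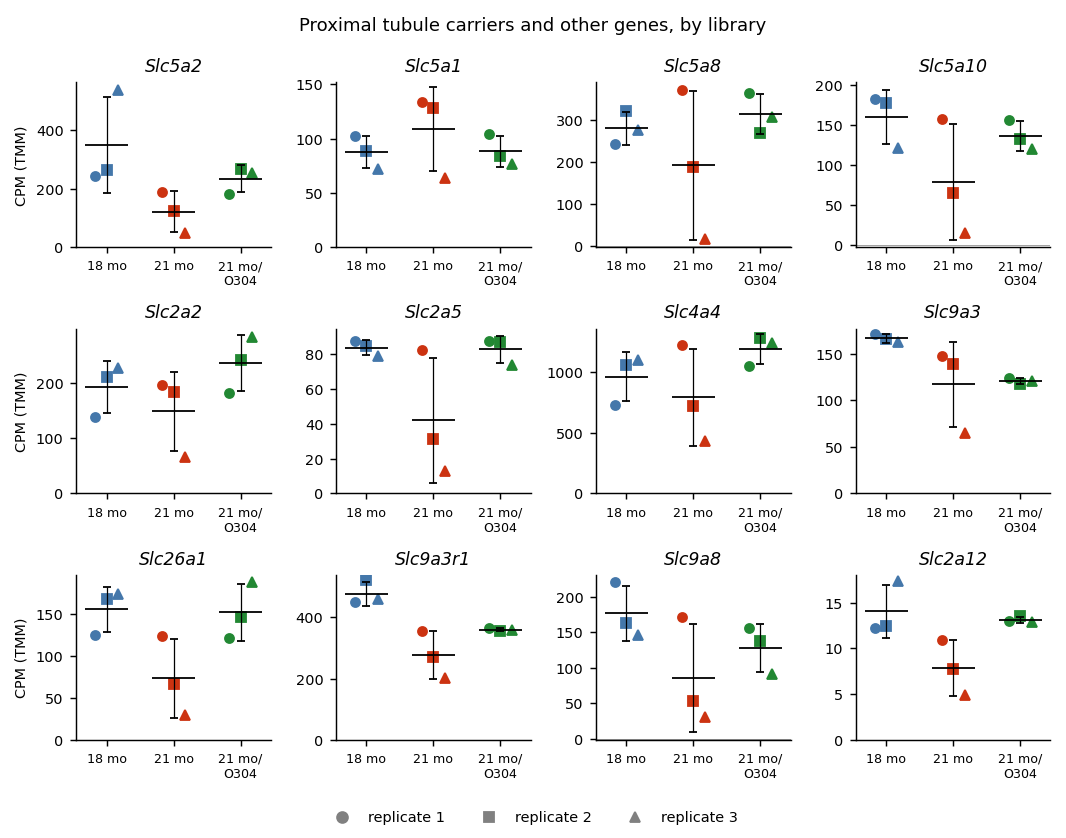
CPM of 12 genes in each of the 9 libraries, with marker shape for the replicate number, a horizontal line for the group mean and error bars of 1 SD (n = 3). In the 21 mo group replicate 3 is the lowest of the 3 for every gene shown. For Slc5a8 it held 18.2 CPM against 373 CPM in replicate 1.

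Of the facilitators, Slc2a2 encodes GLUT2, the basolateral exit for glucose. It had 138, 210 and 227 CPM at 18 mo, 196, 182 and 66.2 CPM at 21 mo and 181, 241 and 283 CPM under O304. Only replicate 3 of the 21 mo group lay outside the range of the 18 mo libraries, and the log2 fold change was −0.37 (SE 0.38, edgeR adjusted p = 0.554). Slc2a5, the fructose facilitator GLUT5, lies on chromosome 4 from 150119283 to 150144169. It held 87.4, 84.0 and 78.9 CPM at 18 mo, 81.9, 31.0 and 12.9 CPM at 21 mo and 87.2, 86.4 and 73.6 CPM under O304. The 18 mo and O304 libraries kept within a narrow band that 2 of the 3 libraries of the 21 mo group lay outside. Its log2 fold change at 21 mo was −1.0 (SE 0.51, edgeR adjusted p = 0.249), and without replicate 1 of the 21 mo group it was −1.91 and passed (edgeR adjusted p = 0.00668). For O304 against 21 mo the values were 0.98 with all libraries (SE 0.51, edgeR adjusted p = 0.295) and 1.90 without that replicate, which passed (edgeR adjusted p = 0.00908). In the fit lacking replicate 3 of that group the values of Slc2a5 were −0.58 at 21 mo and 0.55 for O304, and neither passed (edgeR adjusted p = 0.326 and 0.46).

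Slc2a12 and Slc2a9 were the facilitators with lower and separated values at 21 mo besides Slc2a4. Slc2a12, which encodes GLUT12 and shares reads with the overlapping gene Tbpl1, held 12.3, 12.5 and 17.4 CPM at 18 mo, 11.0, 7.73 and 4.86 CPM at 21 mo and 13.0, 13.5 and 12.9 CPM under O304. The 21 mo libraries lay below both other groups, with log2 fold changes of −0.85 (SE 0.28, edgeR adjusted p = 0.112) against 18 mo and 0.75 (SE 0.28, edgeR adjusted p = 0.202) for O304 against 21 mo. Slc2a9, a urate carrier, had 19.4, 25.2 and 19.3 CPM at 18 mo and 16.1, 16.6 and 15.8 CPM at 21 mo, a log2 fold change of −0.40 (SE 0.18, edgeR adjusted p = 0.191). Its 21 mo/O304 libraries, at 22.0, 15.0 and 21.1 CPM, overlapped both groups.

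Slc2a4 encodes GLUT4, the facilitator that insulin moves to the surface of fat and muscle cells. It held 33.6, 31.8 and 27.1 CPM at 18 mo, 24.3, 16.9 and 13.2 CPM at 21 mo and 28.4, 15.7 and 12.8 CPM under O304. All 3 libraries of the 21 mo group lay below the 18 mo group, with a log2 fold change of −0.77 (SE 0.31, edgeR adjusted p = 0.165), and the O304 libraries spanned the 21 mo values. A list of 7 adipocyte markers summed to 1.23 to 11.7 CPM at 18 mo and 2.54 to 8.70 CPM at 21 mo. In the 21 mo/O304 group the list summed to 160, 12.9 and 127 CPM. Slc2a4 was highest in replicate 1 and lowest in replicate 3 of that group, both of them high in these markers. Their part in the level of Slc2a4 was not tested.

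The bicarbonate exit of the proximal tubule, Slc4a4 (NBCe1), held 726, 1052 and 1092 CPM at 18 mo, 1215, 716 and 433 CPM at 21 mo and 1048, 1273 and 1237 CPM under O304. The 21 mo group again held the widest range, and the log2 fold change was −0.28 (SE 0.36, edgeR adjusted p = 0.639). For O304 against 21 mo it was 0.59 (SE 0.36, edgeR adjusted p = 0.350), and it passed in the fit lacking replicate 1 of the 21 mo group, at 1.04 (edgeR adjusted p = 0.0335). In the fit lacking replicate 3 it was 0.30 (edgeR adjusted p = 0.623), and that at 21 mo was −0.0034. Slc26a1, an exchanger of sulfate and other anions on the basolateral side, had 126, 168 and 174 CPM at 18 mo, 124, 66.7 and 29.9 CPM at 21 mo and 122, 147 and 189 CPM under O304. Its 21 mo libraries lay below the 18 mo libraries by a small margin in replicate 1 and a wide one in replicate 3. At 21 mo it differed by −1.09 on the log2 scale (SE 0.43, edgeR adjusted p = 0.154), and without replicate 1 of the 21 mo group it was −1.68 and passed (edgeR adjusted p = 0.0127), while without replicate 3 it was −0.73 (edgeR adjusted p = 0.184). Idua overlaps this gene. Slc26a6, a luminal exchanger of chloride for oxalate and other anions, had 8.36, 10.04 and 7.30 CPM at 18 mo, 4.75, 8.41 and 5.63 CPM at 21 mo and 5.29, 5.78 and 2.93 CPM under O304. The O304 libraries lay below all 18 mo libraries, while the 21 mo libraries overlapped both groups.

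The sodium/proton exchanger genes did not move as a block. Slc9a3 encodes NHE3, the main luminal entry for sodium in the proximal tubule, and lies on chromosome 13 from 74121457 to 74169442. It held 172, 165 and 163 CPM at 18 mo, 148, 139 and 64.6 CPM at 21 mo and 124, 118 and 121 CPM under O304. The libraries of the 18 mo group were close to one another, as were those of O304, and both 21-month-old groups lay below the 18 mo group in every library. The log2 fold changes against 18 mo were −0.51 at 21 mo (SE 0.26, edgeR adjusted p = 0.251) and −0.46 under O304 (SE 0.26, edgeR adjusted p = 0.615). Between O304 and 21 mo the log2 fold change was 0.05 (SE 0.26), and it turned to −0.24 without replicate 3 of the 21 mo group and to −0.19 with limma voom.

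Slc9a3r1 encodes NHERF1, the scaffold that anchors NHE3 and phosphate carriers at the luminal membrane, and lies on chromosome 11 from 115163341 to 115181181. It had 451, 522 and 459 CPM at 18 mo, 356, 271 and 201 CPM at 21 mo and 364, 355 and 357 CPM under O304. Both 21-month-old groups lay below the 18 mo group without overlap, at 276 ± 78.0 CPM for 21 mo and 359 ± 4.83 CPM for O304 against 477 ± 39.0 CPM (SD, n = 3 each). Its log2 fold change at 21 mo was −0.79 (SE 0.21, edgeR adjusted p = 0.0827), and without replicate 1 of the 21 mo group it was −1.0 and passed (edgeR adjusted p = 0.00784), while without replicate 3 it was −0.62 (edgeR adjusted p = 0.0785). Under O304 against 18 mo it was −0.41 (SE 0.21, edgeR adjusted p = 0.573). Slc9a8, which encodes the exchanger NHE8, had 220, 163 and 147 CPM at 18 mo, 172, 53.6 and 30.5 CPM at 21 mo and 156, 138 and 91.0 CPM under O304. Replicates 2 and 3 of the 21 mo group were the lowest of all libraries, but its replicate 1 lay among the 18 mo values, with a log2 fold change of −1.05 (SE 0.55, edgeR adjusted p = 0.252). It was −2.06 and passed without that replicate (edgeR adjusted p = 0.00611) and −0.66 without replicate 3 (edgeR adjusted p = 0.400).

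Further along the nephron, the salt carrier of the distal convoluted tubule differed from that of the thick limb. Slc12a3 encodes NCC, the thiazide-sensitive sodium-chloride cotransporter, and lies on chromosome 8 from 94329201 to 94366214. It held 624, 880 and 786 CPM at 18 mo, 565, 340 and 244 CPM at 21 mo and 815, 772 and 694 CPM under O304. All libraries of the 21 mo group lay below all of both other groups, at 383 ± 165 CPM against 763 ± 130 CPM and 760 ± 61.4 CPM (SD, n = 3 each). The log2 fold change at 21 mo was −0.99 (SE 0.30, edgeR adjusted p = 0.0975) and that of O304 against 21 mo 0.99 (SE 0.30, edgeR adjusted p = 0.176). Both passed in DESeq2 (adjusted p = 0.0174 and 0.0308), and both passed in edgeR without replicate 1 of the 21 mo group, at −1.37 (adjusted p = 0.00690) and 1.37 (adjusted p = 0.00908). In the fit lacking replicate 3 they were −0.77 and 0.76, and neither passed (edgeR adjusted p = 0.120 and 0.272).

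A list of 5 other distal convoluted tubule markers summed to 380, 710 and 518 CPM at 18 mo, 489, 406 and 486 CPM at 21 mo and 996, 748 and 751 CPM under O304. The list thus overlapped between 18 mo and 21 mo and lay above both groups under O304. For 3 of its 5 genes all O304 libraries lay above the 21 mo libraries, against 10.8% of all genes. Pvalb, 1 of the 5, which marks the early part of the segment, held 24.5, 0.909 and 0 CPM in replicates 1 to 3 of the 21 mo group. The list as a whole did not share this order. Its median log2 level relative to the 18 mo mean was 0.01, −0.52 and 0.13 in the same libraries. The part of these markers in the level of Slc12a3 was not tested. Slc8a1, the sodium/calcium exchanger NCX1 that returns calcium to the blood in the distal tubule, held 36.0, 76.8 and 58.8 CPM at 18 mo, 63.1, 21.3 and 31.4 CPM at 21 mo and 47.9, 41.8 and 44.8 CPM under O304. Its log2 fold change of −0.57 (SE 0.38, edgeR adjusted p = 0.366) was within the spread, and Gm11096 overlaps it.

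Slc12a1 encodes NKCC2, the furosemide-sensitive cotransporter of the thick limb, and lies on chromosome 2 from 125152505 to 125230002, where the antisense gene Gm14002 overlaps it. It held 2239, 519 and 599 CPM at 18 mo, 1546, 1396 and 631 CPM at 21 mo and 885, 473 and 381 CPM under O304. Replicate 1 of the 18 mo group and replicates 1 and 2 of the 21 mo group stood apart as high, whatever their group. The log2 fold change at 21 mo was 0.09 (SE 0.61, edgeR adjusted p = 0.934), and it turned to between −0.26 and −0.05 in 4 of the 9 fits that each left out 1 library. Umod, which encodes uromodulin of the same cells, was high in the same 3 libraries, at 4767, 1886 and 2271 CPM at 18 mo, 4479, 4360 and 2008 CPM at 21 mo and 2586, 1752 and 1405 CPM under O304. The 6 listed thick limb markers, Umod among them, had median log2 levels relative to the 18 mo mean of 0.41, −0.16 and −0.28 at 18 mo. These were 0.31, 0.26 and −0.35 at 21 mo and −0.12, −0.47 and −0.24 under O304. Kcnj1 of the list was highest in replicate 1 under O304, at 291 CPM. For O304 against 21 mo, 3 of the 6 had a higher fitted level, against 48.2% of all genes.

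The other cation-chloride cotransporters were split between higher and lower values at 21 mo. Slc12a7, the potassium-chloride cotransporter KCC4, held 158, 187 and 182 CPM at 18 mo, 125, 123 and 84.0 CPM at 21 mo and 154, 173 and 153 CPM under O304. The 21 mo libraries lay below both other groups, with log2 fold changes of −0.67 (SE 0.17, edgeR adjusted p = 0.0796) against 18 mo and 0.53 (SE 0.17, edgeR adjusted p = 0.181) for O304 against 21 mo. The first passed in DESeq2 (adjusted p = 0.0131).

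Slc12a9, a member of the family whose substrate is less certain, held 22.1, 25.7 and 21.8 CPM at 18 mo, 18.5, 16.1 and 16.4 CPM at 21 mo and 17.5, 15.6 and 18.2 CPM under O304. Like Slc9a3 and Slc9a3r1 it was lower than the 18 mo libraries in every library of both 21-month-old groups, by −0.45 at 21 mo (SE 0.13, edgeR adjusted p = 0.0881) and −0.44 under O304 (SE 0.13, edgeR adjusted p = 0.351) on the log2 scale. The difference at 21 mo passed in DESeq2 (adjusted p = 0.0429). Slc12a4, the widely expressed KCC1, held 19.9, 15.9 and 20.3 CPM at 18 mo, 16.5, 25.3 and 48.0 CPM at 21 mo and 15.4, 13.5 and 11.5 CPM under O304. The O304 libraries were the lowest of all, with a log2 fold change of −1.16 against 21 mo (SE 0.34, edgeR adjusted p = 0.175) that passed in DESeq2 (adjusted p = 0.0352) and was −0.63 without replicate 3 of the 21 mo group (edgeR adjusted p = 0.278). Slc12a2, the secretory cotransporter NKCC1, held 41.9, 57.1 and 45.1 CPM at 18 mo, 44.7, 58.1 and 109 CPM at 21 mo and 52.5, 56.3 and 71.2 CPM under O304. Replicate 3 of the 21 mo group stood alone as high, and without it the log2 fold change at 21 mo dropped from 0.56 (SE 0.30) to 0.08.

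**Figure D4:**
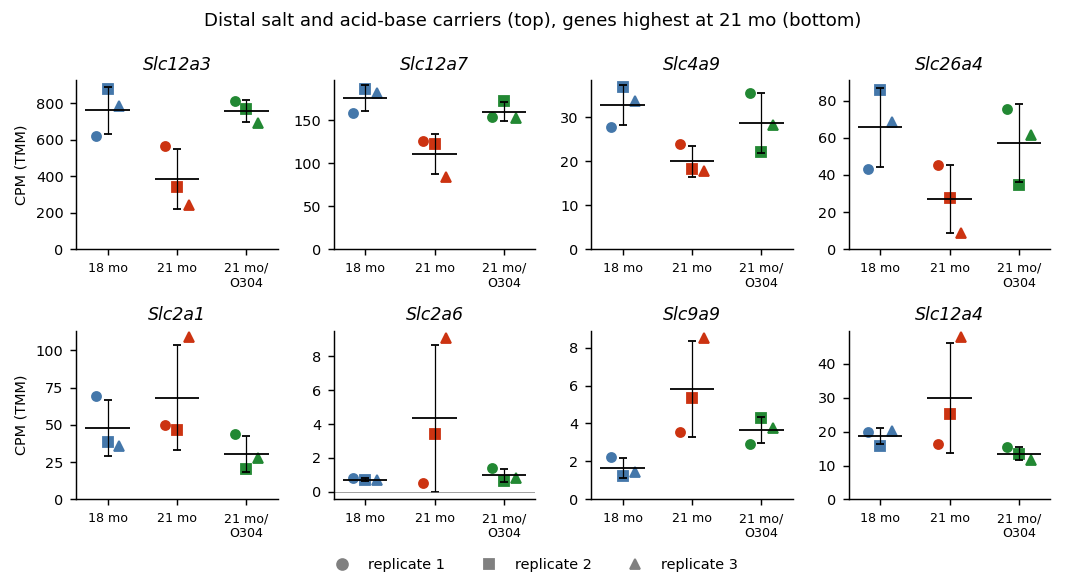
CPM of 4 carriers of the distal nephron (top) and of 4 genes with higher values in the 21 mo group (bottom) in each library, with the group mean as a line and error bars of 1 SD (n = 3). For Slc12a3 and Slc12a7 the 3 libraries of the 21 mo group lie below all 6 others, and for Slc2a1, Slc2a6, Slc9a9 and Slc12a4 replicate 3 of the 21 mo group is the highest of the 9.

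Of the acid-base carriers of intercalated cells, 3 of 4 had a lower fitted level at 21 mo, against 47.3% of all genes. The other carrier, Slc26a7, had a higher one, with a log2 fold change of 0.92. Slc4a9, which encodes AE4 of the bicarbonate-secreting cells, held 27.7, 36.8 and 33.7 CPM at 18 mo, 24.0, 18.1 and 17.7 CPM at 21 mo and 35.6, 22.2 and 28.3 CPM under O304. The 21 mo libraries lay below the 18 mo libraries, with a log2 fold change of −0.72 (SE 0.20, edgeR adjusted p = 0.0871) that passed in DESeq2 (adjusted p = 0.0330). Slc26a4 encodes pendrin, the luminal chloride/bicarbonate exchanger of the same cells. It had 43.2, 85.6 and 68.4 CPM at 18 mo, 45.3, 27.4 and 8.84 CPM at 21 mo and 75.7, 34.4 and 61.4 CPM under O304. Replicate 1 of the 21 mo group lay inside the 18 mo range and the log2 fold change of −1.28 (SE 0.53, edgeR adjusted p = 0.172) did not pass. It passed in edgeR without that replicate, at −1.85 (adjusted p = 0.0357), and with limma voom (adjusted p = 0.0025). Without replicate 3 it was −0.87 (edgeR adjusted p = 0.223).

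Slc4a1 encodes AE1 of the acid-secreting intercalated cells and of red blood cells. It held 54.9, 36.7 and 29.5 CPM at 18 mo, 34.8, 23.2 and 7.65 CPM at 21 mo and 37.3, 18.2 and 27.4 CPM under O304. A list of 6 erythroid markers summed to 233, 22.7 and 167 CPM at 18 mo, 882, 13.8 and 4.08 CPM at 21 mo and 31.2, 153 and 225 CPM under O304. Both were lowest in replicate 3 of the 21 mo group, while the erythroid markers were highest in its replicate 1 and Slc4a1 in replicate 1 of the 18 mo group, and the part of blood in its level was not tested. A list of 6 other intercalated cell markers summed to 212 to 233 CPM at 18 mo, 151 to 193 CPM at 21 mo and 133 to 234 CPM under O304. Only 1 of the 6 had a higher fitted level at 21 mo, against 52.7% of all genes. For 3 of them the 21 mo libraries all lay below the 18 mo libraries, against 15.3% of all genes. For O304 against 21 mo, 3 of the 6 had a higher fitted level, against 48.2% of all genes. Their part in the levels of these carriers was not tested.

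Slc4a2, the housekeeping anion exchanger AE2, was lowest under O304. It held 63.7, 54.8 and 58.9 CPM at 18 mo, 50.0, 53.8 and 57.5 CPM at 21 mo and 43.4, 39.5 and 42.3 CPM under O304. The O304 libraries lay below all 6 others, with log2 fold changes of −0.37 against 21 mo (SE 0.10, edgeR adjusted p = 0.175) and −0.50 against 18 mo (SE 0.10, edgeR adjusted p = 0.323). The second was the 1 member called in that comparison by DESeq2 (adjusted p = 0.0162) and by limma (adjusted p = 0.0248). Fastk overlaps this gene.

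Slc4a11 and Slc4a8, both at low levels, were highest in replicate 1 of the 18 mo group and replicates 2 and 3 of the 21 mo group. For both genes all 21 mo libraries lay above all O304 libraries. Slc4a11, a transporter known from the corneal endothelium, lies on chromosome 2 from 130684113 to 130697519 and held 13.4, 2.10 and 1.81 CPM at 18 mo, 8.09, 16.7 and 13.1 CPM at 21 mo and 1.92, 1.61 and 0.573 CPM under O304. Its log2 fold change of O304 against 21 mo, −3.19, had the largest size of all 58 members (SE 0.82, edgeR adjusted p = 0.175), and it passed in DESeq2 (adjusted p = 0.00185). Slc4a8, a sodium-driven chloride/bicarbonate exchanger, held 11.6, 6.04 and 5.94 CPM at 18 mo, 7.69, 13.7 and 13.1 CPM at 21 mo and 6.34, 3.99 and 2.93 CPM under O304. For O304 against 21 mo its log2 fold change was −1.38 (SE 0.39, edgeR adjusted p = 0.175), and it passed in DESeq2 (adjusted p = 0.0218).

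Slc26a7, an anion exchanger of acid-secreting cells in the outer medulla, had 3.47, 0.555 and 0.792 CPM at 18 mo, 2.01, 4.04 and 3.02 CPM at 21 mo and 1.57, 0.417 and 0.891 CPM under O304. All libraries of the 21 mo group lay above all O304 libraries, with a log2 fold change of −1.65 (SE 0.73, edgeR adjusted p = 0.242). Slc2a13, which carries myo-inositol with protons, held 11.8, 4.99 and 4.02 CPM at 18 mo, 6.96, 8.75 and 3.89 CPM at 21 mo and 3.84, 2.21 and 2.61 CPM under O304. The log2 fold change of O304 against 21 mo was −1.17 (SE 0.47, edgeR adjusted p = 0.217). Slc5a3, the sodium-coupled myo-inositol carrier that cells of the medulla raise against osmotic stress, held 178, 64.6 and 77.3 CPM at 18 mo, 252, 309 and 80.7 CPM at 21 mo and 154, 98.6 and 75.9 CPM under O304. Replicates 1 and 2 of the 21 mo group were the highest, and the log2 fold change at 21 mo was 1.00 (SE 0.54, edgeR adjusted p = 0.266). Mrps6 overlaps it.

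A gene of the inner medulla was unevenly present across the libraries. Slc14a2, the urea transporter of the inner medulla and no member here, held 61.7, 0 and 0 CPM at 18 mo, 1.67, 60.2 and 50.6 CPM at 21 mo and 0.116, 0 and 0.382 CPM under O304. A list of 8 medullary genes, made after the members' values were seen, summed to 380, 117 and 145 CPM at 18 mo, 265, 344 and 344 CPM at 21 mo and 291, 112 and 100.1 CPM under O304. The list did not follow Slc14a2 in the 21 mo group. Its median log2 level relative to the 18 mo mean was 1.02, 0.92 and 0.79 there. Slc4a11 and Slc4a8 were highest in the 3 libraries where Slc14a2 was above 50 CPM, as was Slc26a7. Slc12a1 did not follow Slc14a2 in the 21 mo group, where replicate 1 held 1546 CPM of the former and 1.67 CPM of the latter. The share of medulla in each library was not tested against the levels of these carriers.

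**Figure D5:**
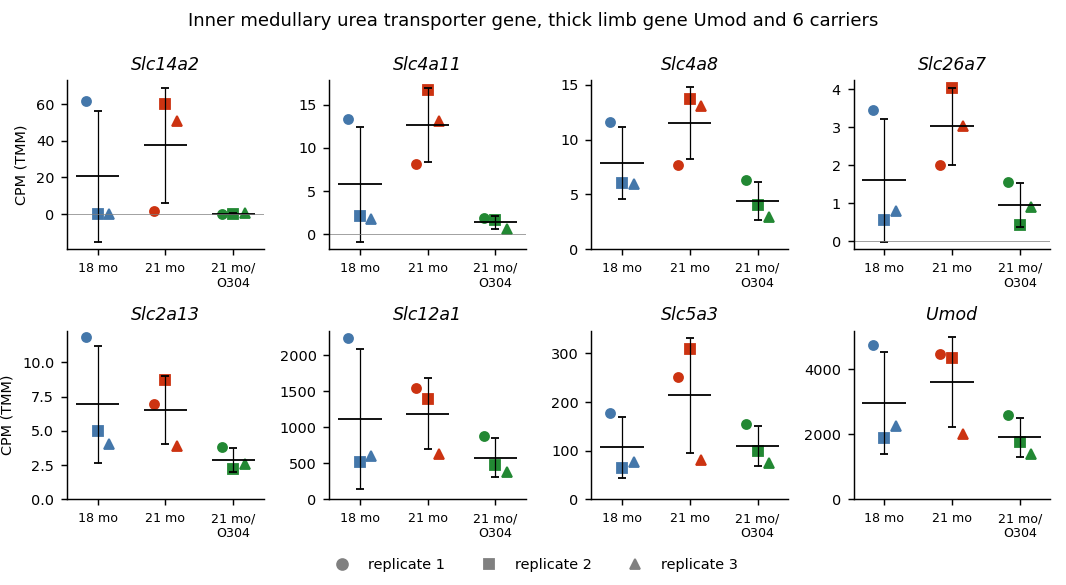
CPM by library of the inner medullary gene Slc14a2, of 6 carriers and of the thick limb gene Umod, with the group mean as a line and error bars of 1 SD (n = 3). Slc14a2 is at 50.6 to 61.7 CPM in 3 libraries and at 1.67 CPM or less in the other 6, and Slc4a11 and Slc4a8 are highest in the same 3 libraries.

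The members with higher levels at 21 mo were mostly low in the kidney and highest in replicate 3 of that group. Slc9a9 encodes NHE9, a sodium/proton exchanger of endosomes, and had the smallest p of the 58 in this comparison. It lies on chromosome 9 from 94669909 to 95230445 and held 2.23, 1.23 and 1.47 CPM at 18 mo, 3.55, 5.34 and 8.52 CPM at 21 mo and 2.91, 4.29 and 3.76 CPM under O304. Every library of both 21-month-old groups lay above every 18 mo library. The log2 fold change at 21 mo was 1.82 (SE 0.39, edgeR adjusted p = 0.0631), which passed in DESeq2 (adjusted p = 0.000738) and in edgeR with no filter (adjusted p = 0.0358). Under O304 against 18 mo it was 1.15 (SE 0.39, edgeR adjusted p = 0.415). The antisense gene Gm16262 and 2 other genes overlap it.

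Slc2a6 encodes GLUT6, a facilitator of lysosomal membranes that is known from activated macrophages. It held 0.805, 0.678 and 0.679 CPM at 18 mo, 0.535, 3.41 and 9.07 CPM at 21 mo and 1.40, 0.656 and 0.828 CPM under O304. Replicates 2 and 3 of the 21 mo group stood above all others and replicate 1 below them all, and the log2 fold change at 21 mo was 2.59 (SE 0.82, edgeR adjusted p = 0.103). It passed in DESeq2 (adjusted p = 0.0170), and without replicate 3 of the 21 mo group it was 1.44 (edgeR adjusted p = 0.259). Slc2a1 encodes GLUT1, the basal glucose facilitator of many cell types. It held 69.4, 38.3 and 35.9 CPM at 18 mo, 49.7, 46.3 and 109 CPM at 21 mo and 43.8, 20.1 and 28.0 CPM under O304. The O304 libraries lay below the 21 mo libraries, with a log2 fold change of −1.16 (SE 0.42, edgeR adjusted p = 0.196) that was −0.64 without replicate 3 of the 21 mo group. At 21 mo against 18 mo the log2 fold change of 0.51 (SE 0.41) dropped to −0.01 without replicate 3 of the 21 mo group.

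Markers of macrophages and fibroblasts were also highest in that library, while those of other immune cells were not. All 7 macrophage markers had a higher fitted level at 21 mo, against 52.7% of all genes. For 6 of them the 21 mo libraries all lay above the 18 mo libraries, against 13.5% of all genes. The 7 summed to 506, 299 and 391 CPM at 18 mo, 751, 1170 and 3575 CPM at 21 mo and 578, 551 and 592 CPM under O304. The 6 fibroblast markers summed to 160 to 243 CPM at 18 mo, 130, 553 and 1308 CPM at 21 mo and 100.3 to 239 CPM under O304. None of these macrophage and fibroblast markers was at 0 in any library. The 5 neutrophil markers summed to 56.3, 16.3 and 46.4 CPM at 21 mo, highest in replicate 1, and the 8 markers of T and B cells to 103, 112 and 630 CPM at 21 mo and 218, 701 and 556 CPM under O304, highest in replicate 2 under O304. Their part in the levels of Slc9a9, Slc2a6, Slc2a1, Slc12a2 and Slc12a4 was not tested. Slc4a7, an electroneutral sodium-bicarbonate cotransporter, also had a higher fitted level at 21 mo, with 16.2, 11.1 and 8.94 CPM at 18 mo, 17.9, 18.2 and 14.7 CPM at 21 mo and 12.2, 13.2 and 11.8 CPM under O304. Its O304 libraries lay below its 21 mo libraries by −0.44 on the log2 scale (SE 0.22, edgeR adjusted p = 0.271).

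Of the other members whose groups did not overlap, Slc2a3, the facilitator GLUT3, held 1.86, 1.60 and 1.98 CPM at 18 mo, 3.14, 2.046 and 2.06 CPM at 21 mo and 2.33, 2.56 and 1.78 CPM under O304. Slc9a7, an exchanger of the Golgi, had 2.11, 1.79 and 0.962 CPM at 18 mo, 2.61, 2.501 and 2.52 CPM at 21 mo and 1.92, 1.79 and 0.891 CPM under O304. These were, besides Slc9a9, the members with all 21 mo libraries above the 18 mo libraries. Slc9a2, a luminal sodium/proton exchanger, held 48.3, 73.3 and 56.1 CPM at 18 mo, 49.7, 41.8 and 17.1 CPM at 21 mo and 54.0, 55.2 and 56.2 CPM under O304. Its O304 libraries lay above all 21 mo libraries, by 0.61 on the log2 scale (SE 0.33, edgeR adjusted p = 0.310). Slc26a11, a sodium-independent sulfate carrier, was highest under O304, at 9.94, 11.4 and 11.0 CPM against 8.73, 9.86 and 8.99 CPM at 18 mo and 9.43, 8.47 and 8.02 CPM at 21 mo.

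Several members were even across the groups. The adaptor gene Slc4a1ap had log2 fold changes of 0.09 at 21 mo (SE 0.14) and 0.02 for O304 against 21 mo (SE 0.14). Slc26a2, a widely expressed sulfate carrier, ranged from 15.3 to 23.3 CPM over the 9 libraries, and its log2 fold change at 21 mo was −0.06 (SE 0.19). Slc2a8, an intracellular facilitator, ranged from 12.5 to 20.2 CPM, with −0.15 (SE 0.20).

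The potassium-dependent sodium/calcium exchangers were barely present. Slc24a3 held 1.30, 0.986 and 1.47 CPM at 18 mo, 1.61, 0.682 and 2.20 CPM at 21 mo and 1.98, 2.21 and 1.40 CPM under O304. Its log2 fold change at 21 mo was 0.26 (SE 0.45) and turned to −0.85 with limma voom, and Slc24a5 stayed under 0.7 CPM in every library.

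A list of 30 genes that drive, regulate or work beside these carriers was also read out, and all 30 passed the filter on low counts. In 21 mo against 18 mo, 0 of 30 passed in edgeR's test, while 8 were lower and 0 higher at an unadjusted p under 0.05, against 12% and 14.0% of all genes, and 7 lay wholly below and 1 above the 18 mo libraries, against 15.3% and 13.5%. The median log2 fold change was −0.13. Atp1b1, which encodes the beta subunit of the sodium pump that powers the carriers, differed by less than its standard error, with a log2 fold change of −0.14 (SE 0.28). Fxyd2, the small regulatory subunit of the pump, held 2391, 2515 and 2189 CPM at 18 mo, 1600, 1288 and 918 CPM at 21 mo and 1926, 1708 and 2029 CPM under O304. Its 21 mo libraries lay below both other groups, with a log2 fold change of −0.90 at 21 mo (SE 0.27, edgeR adjusted p = 0.0928).

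Car4, the membrane-bound carbonic anhydrase that works with NHE3 and NBCe1, held 189, 285 and 205 CPM at 18 mo, 135, 67.1 and 15.9 CPM at 21 mo and 196, 215 and 272 CPM under O304. It lay below both other groups in every 21 mo library, with log2 fold changes of −1.64 (SE 0.59, edgeR adjusted p = 0.131) at 21 mo and 1.65 (SE 0.59, edgeR adjusted p = 0.194) for O304 against 21 mo.

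In 21 mo/O304 against 21 mo, 0 of the 30 passed in edgeR's test, 5 were higher and 2 lower at an unadjusted p under 0.05, against 8.27% and 12.4% of all genes, and 6 lay wholly above and 3 below the 21 mo libraries, against 10.8% and 10.5%. The median log2 fold change was 0.21. Genes that regulate NCC were among both. Klhl3, which marks WNK kinases for breakdown, held 41.7, 53.7 and 55.9 CPM at 18 mo, 43.4, 22.4 and 11.96 CPM at 21 mo and 68.2, 67.0 and 63.2 CPM under O304, a log2 fold change of 1.36 (SE 0.38, edgeR adjusted p = 0.175). Wnk1 held 281, 384 and 364 CPM at 18 mo, 394, 241 and 203 CPM at 21 mo and 461, 541 and 473 CPM under O304, which lay above all other libraries. Stk39, the kinase SPAK that phosphorylates NCC and NKCC2, was lower under O304 than in every 21 mo library, with 35.7, 23.7 and 18.9 CPM against 40.6, 45.7 and 61.8 CPM, and Sgk1, a kinase induced by aldosterone, likewise with 75.6, 102 and 76.6 CPM against 112, 186 and 183 CPM. The epithelial sodium channel genes Scnn1b and Scnn1g had log2 fold changes of −0.36 (SE 0.21, edgeR adjusted p = 0.339) and 0.02 (SE 0.18, edgeR adjusted p = 0.956), and their groups overlapped.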

How the data were processed

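Kidney RNA of male C57BL/6 mice was sequenced from libraries made with the NEBNext Ultra RNA kit from 1 µg of total RNA. The authors deposited 1 table with a raw count and an FPKM value (per gene length and library size) per gene for each of the 9 libraries. Per the submitters' processing notes, HISAT2 2.0.5, featureCounts 1.5.0-p3 and DESeq2 1.20.0 were used with GRCm38 (mm10). Strand and multimapping settings are not given in the sources used here, so overlapping genes could not be separated. The authors' own tests (columns of p-values, adjusted p-values and log2 fold changes) were not used.

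Groups came from the sample titles. The deposited counts were fitted in R 4.3.3 with edgeR 4.0.16 (quasi-likelihood test, TMM factors, 3 group means over 9 libraries, prior count 2 for log2 CPM) after filterByExpr (minimum count 10, minimum total 15), with Benjamini-Hochberg adjustment over 15902 genes and a threshold of 0.05. TMM factors ran from 0.928 to 1.20. The 3 group differences share libraries. Alternatives were DESeq2 1.42.0, its size factors in edgeR, no filter, the 6 libraries compared alone, a replicate block, limma 3.58.1 voom with sample quality weights, and leaving out each library. Exact permutation tests were two-sided over samples. The script was tested on simulated data. Figures were drawn with Python 3.11.15 and matplotlib 3.10.9.

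The members and all gene lists were chosen with earlier results of these data known. Genes named in the text were a list of known renal carriers, up to 5 members with the smallest p-value in each direction for 21 mo against 18 mo and for O304 against 21 mo, and the member with the highest mean FPKM in each of the 8 families. The segment groups, the medullary list and further members named for non-overlapping or even values were picked after the members' values were seen. Some genes counted in the totals are not reported here by name, and 2 of the 58 tested members are not drawn.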

Additional observations from a re-analysis of the deposited data

How the results depend on the processing

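At this depth, where 1 count was worth 0.0458 to 0.0669 CPM, the 17 members under the filter were not tested in edgeR's filtered fit of all libraries. In DESeq2 Slc5a4a, 1 of the 17, had a log2 fold change of −3.32 at 21 mo (SE 1.27, adjusted p = 0.062) and did not pass. With all libraries 0 members passed in edgeR's quasi-likelihood test in any comparison. DESeq2 called 2 higher and 7 lower at 21 mo against 18 mo, 1 higher and 3 lower for O304 against 21 mo and 1 lower for O304 against 18 mo. Limma voom with sample quality weights called 10 and 26, 21 and 15, and 0 and 1 in the same order, and no filter on low counts called 1 higher at 21 mo. Leaving out 1 library at a time gave 0 to 3 members higher and 0 to 17 lower at 21 mo, and 0 to 10 higher and 0 to 6 lower for O304 against 21 mo, all calls coming from the fit without replicate 1 of the 21 mo group. The other size factors, the 6 libraries alone and the replicate block called 0 members. Libraries with the same replicate number had correlations of −0.13 to 0.175 between their deviations from the group means. Those with different numbers had correlations of −0.263 to 0.202. With 3 libraries per group, this cannot settle whether the numbers pair them. With the replicate block the median log2 fold change of members was −0.35 at 21 mo against 18 mo and 0.10 for O304 against 21 mo. Of 1110 values for named genes under 15 alternatives, 990 kept direction and side of the threshold, 95 passed where edgeR's filtered fit of all 9 libraries did not, and 25 changed sign. Of the 95, 52 came from limma voom, 30 from the fit without replicate 1 of the 21 mo group, 12 from DESeq2 and 1 from the fit with no filter. With limma voom the log2 fold change at 21 mo was −0.48 for Slc5a12, 0.02 for Slc26a6 and −0.85 for Slc24a3, and for O304 against 21 mo it was −0.19 for Slc9a3 and 0.02 for Slc12a2. Over the fits with 1 library left out, the log2 fold change at 21 mo ran from −0.26 to 1.09 for Slc12a1, −0.50 to 0.81 for Slc5a12, −0.16 to 0.59 for Slc24a3 and −0.01 to 0.87 for Slc2a1. For O304 against 21 mo it ran from −0.49 to 0.23 for Slc12a2, −0.04 to 0.07 for Slc12a9, −0.03 to 0.72 for Slc24a3, −0.37 to 0.32 for Slc2a4, −0.06 to 0.84 for Slc4a1, −0.07 to 0.76 for Slc8a1 and −0.24 to 0.24 for Slc9a3. The cause was not tested.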
